A study of Bos taurus with 60 samples.

Results

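The miR-193 and miR-365 miRNAs were followed through the intestinal wall of beef steers that were super-shedders (SS) or non-shedders (NS) of E. coli O157. The members were the rows of the deposited miRNA count table named bta-miR-193a, bta-miR-193b or bta-miR-365, with or without a suffix for the arm. This rule found 6 of the 608 listed miRNAs: bta-miR-193b, bta-miR-365-3p, bta-miR-193a-3p, bta-miR-193a-5p, bta-miR-193a and bta-miR-365-5p. They were chosen by name, with no measured value in the rule, but the family was put forward with earlier results of these data known, so its members are described and not offered as independent evidence.

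The SS steers (SS274, SS287, SS294, SS299 and SS310) had shed E. coli O157 at a super-shedding level, and the NS steers (NS108, NS152, NS165, NS242 and NS745) were pen-mates whose feces tested negative. All 10 were British × Continental feedlot steers, and no agent was given to either group. Small RNA was sequenced from 3 regions of the small intestine (duodenum, then proximal and distal jejunum) and 3 of the large intestine (cecum, then spiral and descending colon) of every steer, which gave 60 libraries and 5 animals per group and region. As a limit of the model, every SS steer was still positive shortly before slaughter but only 1 was still at the super-shedding level. Replicates are separate animals, so p-values of SS against NS within a region or on values per steer measure the spread between steers. In the main tests of regions the 6 libraries of a steer counted as independent, so those p-values ignore the pairing. Fits with the steer as a block or term measure the spread within steers. Per-steer values below are given in the order in which the steers are named here.

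In mammals, miR-193b and a copy of miR-365 are made from 1 gene cluster, and miR-193a and a further copy of miR-365 from another. Each hairpin gives a 5p and a 3p arm, of which 1 is usually kept as the active strand, and the active arms of miR-193a and miR-193b are known to share their seed, the part that pairs with target mRNAs. In human cells miR-193b and miR-365 are known to repress the cell cycle gene CCND1, and miR-193a-3p the receptor gene KIT. In mouse cell culture the miR-193b and miR-365 cluster was reported to promote brown fat differentiation, although mice that lack the cluster were reported to have normal brown fat.

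In the RefSeq annotation of the bovine assembly ARS-UCD2.0, 5 genes carry these names. MIR193B and MIR365-1 are neighbours with 0 genes starting between them, and MIR193B lies inside the lncRNA gene LOC100849865. MIR193A and MIR365-2 lie on 1 chromosome with MIR2333 starting between them, and MIR193A-2 lies on another chromosome inside ZNF623. The row bta-miR-365-3p can hold reads of both MIR365 genes, and which MIR193A gene the row bta-miR-193a counts is not given in the sources used here. Values of miR-365 and miR-193a therefore cannot be assigned to 1 locus.

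Library totals ran from 535373 to 19346766 miRNA counts (median 1735054), so that 3 counts were worth 5.604 CPM (read counts scaled to a common library total) in the shallowest library and 0.155 CPM in the deepest. The marker miRNAs of the gut wall were present: the 5 miRNAs of a smooth muscle list made up 8.41% to 70.8% of all counts, and the 8 of an epithelium list 0.151% to 34.5%. The steer SS299 stood apart, a choice made after its values were seen, and the tests of the members are given with and without it. CPM values below are scaled by library total only, whereas the tests also used TMM factors. Those of the region fits for SS299 were 0.343 in distal jejunum and 0.460 in proximal jejunum, so that its levels there are higher after TMM than in CPM. In its 6 libraries the epithelium list ran from 0.151% to 20.8% (median 4.76%), against 1.62% to 34.5% (median 14.6%) in the 54 libraries of the other 9 steers. The leukocyte list (4 of 4 miRNAs found) had a median of 953 CPM in SS299, against 6661 CPM in the other steers. The red blood cell list (3 of 3) had 696 and 401 CPM, the endothelium list (2 of 2) 12201 and 6573 CPM, and the neuron list (3 of 3) 40.5 and 98.1 CPM as medians in SS299 and the other steers. In the duodenum of SS299 the smooth muscle list stood at 8.41% and the epithelium list at 20.8%. The epithelium list was far lower in its proximal jejunum (0.151%), distal jejunum (0.248%) and descending colon (0.280%). In the descending colon of SS299 the red blood cell list reached 14942 CPM, against at most 2781 CPM in the other steers. No listed miRNA was at 0 in all libraries. The part of these mixtures in the results below was not tested, and in bulk tissue fewer cells of a type and less RNA per cell cannot be told apart.

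The 6 members differed widely in level. bta-miR-193b averaged 117 CPM over the 60 libraries and ranked 122 of 608, and bta-miR-365-3p averaged 64.4 CPM. bta-miR-193a-3p averaged 23.4 CPM (rank 190) and bta-miR-193a-5p 8.53 CPM (rank 236). The rows bta-miR-193a (0.875 CPM) and bta-miR-365-5p (0.720 CPM) were near the detection limit, with no count in 19 and 25 of the 60 libraries. Of all counts of the 6 rows, bta-miR-193b took 52.8% and bta-miR-365-3p 30.5%, so the products of the miR-193b and miR-365 names made up most of the family in the gut. The 2 most abundant members had counts in every library.

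**Figure D1:**
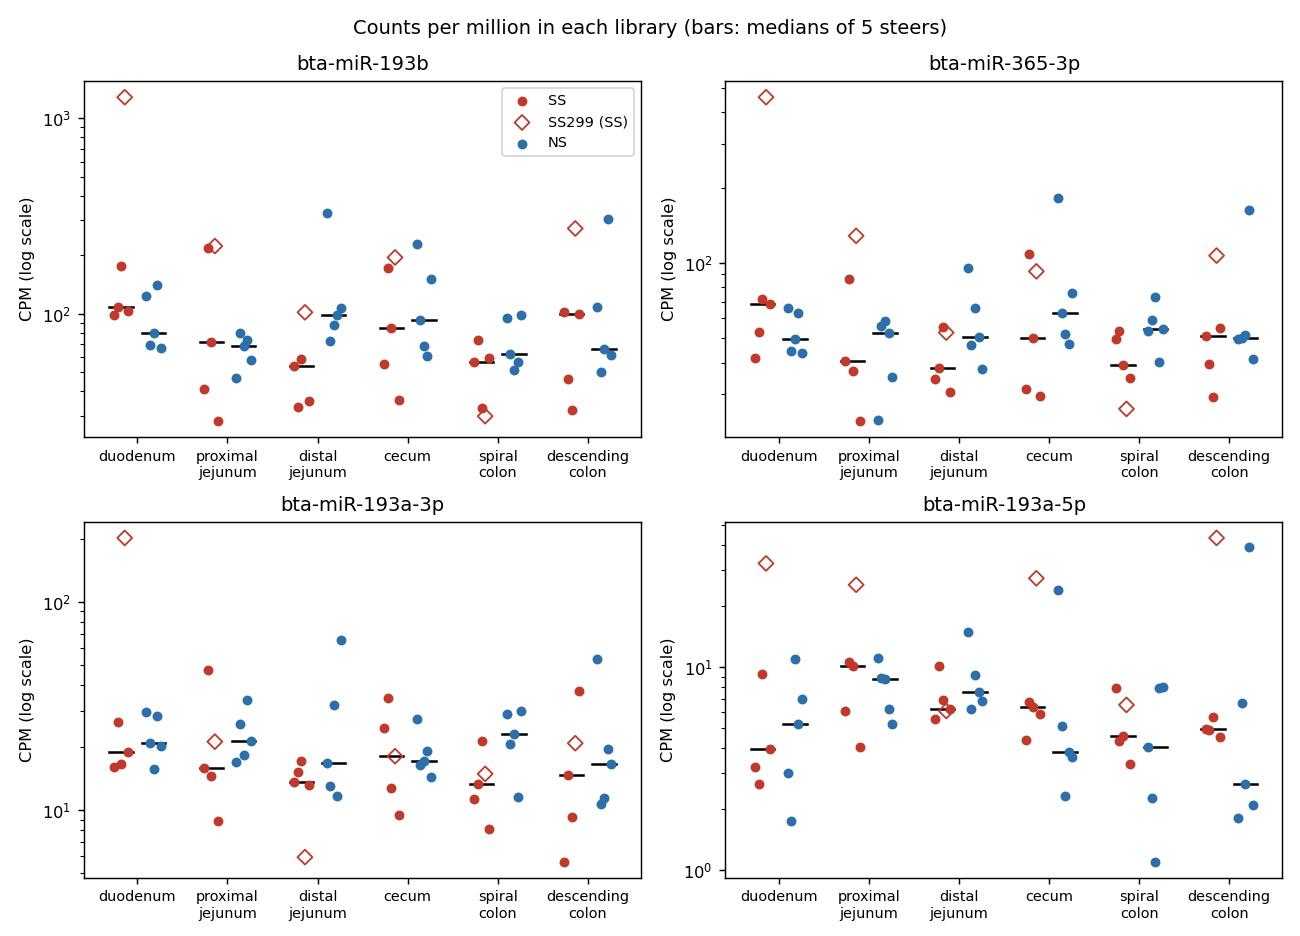
CPM (log axis, before TMM scaling) of the 4 members above 5 CPM in each library, by region, with SS steers on the left in red and NS steers on the right in blue; open diamonds are SS299 and black bars are medians of 5 steers. SS299 sits far above all other steers in the duodenum for the 4 members (1285 CPM of bta-miR-193b) and low in the spiral colon for bta-miR-193b (29.8 CPM).

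The duodenum held the highest single value of bta-miR-193b, bta-miR-365-3p and bta-miR-193a-3p, all in SS299. bta-miR-193b had 98.1, 107.8, 176, 1285 and 103 CPM in SS duodenum, against 123.7, 68.7, 79.6, 139.7 and 66.5 CPM in NS duodenum. The other 4 SS steers overlapped with the NS steers. SS299 had 12.5 times the median of the other 9 steers for this miRNA. bta-miR-365-3p had 41.8, 52.9, 71.8, 459.5 and 68.7 CPM in SS duodenum, against 65.8, 44.6, 49.8, 63.0 and 43.7 CPM in NS duodenum. bta-miR-193a-3p had 16.1, 26.5, 16.7, 203.1 and 18.9 CPM in SS duodenum, against 29.6, 21.0, 15.8, 28.4 and 20.3 CPM in NS duodenum. In both, the other 4 SS steers overlapped with the NS steers, and SS299 stood at 8.68 and 10.0 times the median of the other 9.

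SS299 was also high elsewhere, but not for every member or region. Its bta-miR-193b was 3.26 times the median of the other 9 steers in proximal jejunum and 1.397 times in distal jejunum. In the large intestine it was 2.30 times that median in cecum, 4.14 times in descending colon and 0.503 times in spiral colon. Its bta-miR-365-3p followed the same course, from 3.18 times in the proximal jejunum to 0.489 times in the spiral colon. Its bta-miR-193a-3p, in contrast, was 0.389 times the median in the distal jejunum and 1.06 times in the cecum. In CPM, bta-miR-193a-5p was highest in SS299 in 4 of the 6 regions. On the same scale NS108 had the highest bta-miR-193b and bta-miR-365-3p of the distal jejunum and the cecum, and NS242 those of the descending colon, but this order depended on the scaling. After TMM, SS299 was highest for both in distal jejunum and descending colon. In cecum NS745 was then highest for bta-miR-193b and NS108 for bta-miR-365-3p.

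The first comparison was SS against NS within each region, the comparison the study was built on. In the duodenum, edgeR's quasi-likelihood test with Benjamini-Hochberg adjustment at a false discovery rate (FDR) of 10% called 0 of the 4 members tested, where it called 0.293% of all 341 miRNAs. In the rest of the small intestine it called 0 of 5 in proximal jejunum (0.282% of all miRNAs tested) and 0 of 5 in distal jejunum (0.592%). In the large intestine it called 0 of 5 in cecum (0.292%), 0 of 4 in spiral colon (0.898%) and 0 of 4 in descending colon (0%). bta-miR-365-5p was tested in the cecum only and bta-miR-193a in the proximal and distal jejunum only, because elsewhere too few steers of either group passed 1 CPM. In the cecum and the distal jejunum these rows passed through the NS steers only, with 0 of 5 SS steers above 1 CPM. The filter thus favoured lower values in SS steers there, and these rows were the members under 0.05 named next for those regions. At an unadjusted p under 0.05 there was 1 member each in the duodenum (4.4% of all miRNAs), distal jejunum (10.1%), cecum (7.89%) and spiral colon (8.68%), and 0 in the proximal jejunum (11%) and descending colon (3.02%). edgeR's exact test also called 0 members, where it called 0 to 8 of all miRNAs per region. DESeq2 called 1 member, bta-miR-193a-3p in the spiral colon, where it called 7 of all 334 miRNAs. Without SS299, 0 members passed in duodenum (0.298% of all miRNAs did), proximal jejunum (0.288%), distal jejunum (0.298%) or spiral colon (0.306%), nor in cecum or descending colon, where 0% passed. So few miRNAs passed in any region that the count of 0 for the family does not set it apart from the rest.

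The fitted differences of the abundant members in the upper gut, none past the FDR, rested on SS299. In the duodenum, bta-miR-193b had a log2 fold change of 1.58 (SE 0.65, unadjusted p = 0.031, adjusted p = 0.882 by edgeR's quasi-likelihood test), and without SS299 the value was 0.26. bta-miR-365-3p had 1.06 (SE 0.57), and 0.05 without SS299. bta-miR-193a-3p had 0.93 (SE 0.65), and -0.39 without SS299. The median log2 fold change of the 4 members was 0.99, against 0.0043 over all miRNAs tested in that region, and without SS299 it was -0.10, against 0.04.

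In the proximal jejunum the pattern was similar. bta-miR-193b had 41.2, 217, 71.9, 222 and 28.2 CPM in SS proximal jejunum, against 46.5, 79.9, 68.0, 73.6 and 58.0 CPM in NS proximal jejunum. SS287 and SS299 were high and the other SS steers lay within or below the NS range. The log2 fold change was 1.37 (SE 0.67) and 0.28 without SS299. For bta-miR-365-3p it was 1.09 (SE 0.64) and -0.03 without SS299, and for bta-miR-193a-5p 1.20 (SE 0.68) and -0.12 without SS299.

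In the distal jejunum bta-miR-193b had 53.9, 33.1, 58.7, 101.5 and 35.6 CPM in SS distal jejunum, against 328.7, 72.7, 87.9, 98.1 and 106.7 CPM in NS distal jejunum. In CPM the 4 SS steers other than SS299 all lay below the 5 NS steers, a separation found for 1.19% of all 336 miRNAs tested without SS299, and SS299 lay among the NS steers. After TMM neither held. SS299 then stood at 296 TMM-scaled CPM, above every NS steer (NS108 had 184.9), and SS294, at 81.1, lay above NS152 and NS165, at 75.0 and 80.9. The log2 fold change after TMM was -0.10 (SE 0.63) with all steers and -1.15 without SS299 (unadjusted p = 0.021, adjusted p = 0.435 by edgeR's quasi-likelihood test). With library size alone it was -1.28 with all steers (unadjusted p = 0.030, adjusted p = 0.582, edgeR), so none of the 3 passed. bta-miR-365-3p had 34.2, 38.2, 55.6, 52.7 and 30.6 CPM in SS distal jejunum, against 95.3, 47.2, 65.8, 50.7 and 37.8 CPM in NS distal jejunum. These ranges overlapped, and the fold change was 0.39 (SE 0.49) after scaling by TMM but -0.48 with library size alone and -0.25 without SS299. bta-miR-193a had 3 counts in all in SS distal jejunum, against 12 in NS distal jejunum, too few for a usable fold (unadjusted p = 0.020, adjusted p = 0.306, edgeR). This row passed the filter through the NS steers only, so its p-values carry that selection and are not evidence of a difference.

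**Figure D2:**
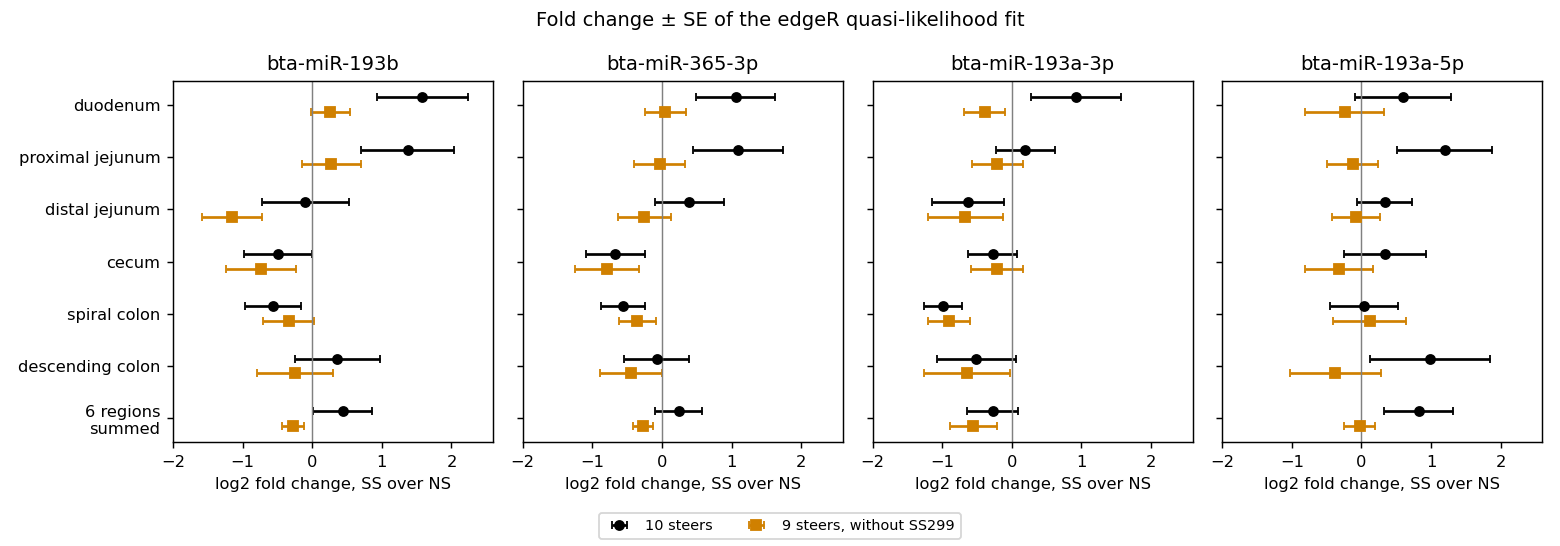
Log2 fold change of SS over NS with its SE for 4 members in each region and on counts summed over regions, with all 10 steers (black circles) and without SS299 (orange squares). For bta-miR-193b in the duodenum the value is 1.58 with all steers and 0.26 without SS299, whereas for bta-miR-193a-3p in the spiral colon it is -0.98 and -0.90.

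The spiral colon gave the member closest to a call. bta-miR-193a-3p had 11.3, 13.3, 21.5, 14.9 and 8.10 CPM in SS spiral colon, against 29.0, 20.7, 23.2, 11.5 and 29.8 CPM in NS spiral colon. It averaged 13.8 ± 4.97 CPM in SS steers and 22.8 ± 7.41 CPM in NS steers (SD, n = 5 each). The ranges overlapped through NS242, NS152 and SS294, the only SS steer above NS152. The log2 fold change was -0.98 (SE 0.27, unadjusted p = 0.004) and the adjusted p was 0.238 by edgeR's quasi-likelihood test. It was 0.110 by edgeR's exact test and 0.044 by DESeq2, which passed the FDR. Leaving out NS242 also gave a call (log2 fold change -1.09, adjusted p = 0.095, in edgeR's quasi-likelihood fit, where 1.23% of all miRNAs passed). Without SS299 the fold change was nearly as large at -0.90, with an adjusted p of 0.517 in the same edgeR test.

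Red blood cell miRNAs were measured beside this difference. bta-miR-451, made in red blood cells, fell in SS spiral colon (log2 fold change -1.79, adjusted p = 0.086 by edgeR's quasi-likelihood test) and was the only 1 of the 3 list members called. The call was lost without SS299 (-1.89, adjusted p = 0.196, edgeR). It had 14.7 to 45.7 CPM in SS steers, against 17.6 to 109 CPM in NS steers. The summed level of the 3 red blood cell miRNAs was 189.9 to 659 CPM in SS spiral colon, against 202 to 501 CPM in NS spiral colon, and none of the 3 was at 0 in all libraries. bta-miR-451 was also among the 5 miRNAs whose pattern over the 60 libraries was most like that of bta-miR-193a-3p. The part of red blood cells in the difference of bta-miR-193a-3p was not tested.

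The other members of the spiral colon had smaller differences of the same sign or none. bta-miR-193b averaged 50.4 ± 18.4 CPM in SS steers and 72.4 ± 22.1 CPM in NS steers (SD, n = 5 each), with a log2 fold change of -0.57 (SE 0.40). bta-miR-365-3p had 49.8, 53.6, 39.1, 26.1 and 34.5 CPM in SS steers, against 53.4, 58.9, 73.4, 40.1 and 54.2 CPM in NS steers. NS242 and NS108 lay within the SS range, and its log2 fold change was -0.56 (SE 0.32). bta-miR-193a-5p had a log2 fold change of 0.04 (SE 0.49), so the arms of miR-193a had unlike point estimates in this region, a difference that was not tested.

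In the cecum the abundant members ran over a wide range in both groups. bta-miR-365-3p had 31.4, 108.3, 49.96, 92.6 and 29.4 CPM in SS cecum, against 181.6, 63.3, 51.8, 47.4 and 76.1 CPM in NS cecum. NS108 was the highest library, the groups overlapped, and the log2 fold change was -0.67 (SE 0.43). bta-miR-193b had -0.49 (SE 0.49), and without SS299 these values were -0.79 and -0.73. bta-miR-365-5p had 6 counts in all in SS cecum, against 19 in NS cecum. Its log2 fold change was -1.66 (SE 0.63, unadjusted p = 0.021, adjusted p = 0.451 in edgeR's quasi-likelihood test), or -1.93 without SS299 (adjusted p = 0.354, edgeR). No SS steer passed 0.93 CPM, so this row was tested through the NS steers only. Its fold changes and p-values carry that selection and are not evidence of a difference.

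In the descending colon 1 steer of each group stood above the rest in CPM. bta-miR-193b had 102, 46.3, 31.99, 273 and 99.2 CPM in SS descending colon, against 107.5, 49.9, 66.0, 304.2 and 61.7 CPM in NS descending colon. bta-miR-193a-5p had 4.97, 4.91, 5.69, 43.4 and 4.52 CPM in SS descending colon, against 1.81, 6.66, 2.65, 39.3 and 2.09 CPM in NS descending colon. SS299 and NS242 held the highest values of both miRNAs, and for bta-miR-193a-5p no other steer passed 6.66 CPM. After TMM, NS242 had 122 TMM-scaled CPM of bta-miR-193b, close to NS165 (119.6) and NS108 (112.5), while SS299 had 300.3. No member of the 4 tested had an unadjusted p under 0.05 here. bta-miR-193a-3p did not share this pattern: its highest value, 53.4 CPM, was in NS108, the deepest library of the series, and SS310 came next with 37.4 CPM.

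Over the whole gut no member passed the test of SS against NS. When the counts of the 6 regions were added up per steer, 0 of 4 members tested passed the FDR (0.583% of 343 miRNAs did). Such sums weight each region by the depth of its library, which differed between steers. The descending colon of NS108 alone held 19346766 counts, against a median of 1735054 per library. The fold changes on summed counts therefore mix region with steer, whereas the mean per steer below gives each region equal weight. An unadjusted p under 0.05 was found for 0 members (10.2% of all). edgeR's exact test and DESeq2 called 0 members (15 and 14 of all 343 miRNAs). The log2 fold changes were 0.44 for bta-miR-193b, 0.24 for bta-miR-365-3p, 0.82 for bta-miR-193a-5p and -0.27 for bta-miR-193a-3p. Without SS299 they were -0.27, -0.28, -0.03 and -0.55, and again 0 members passed (1.78% of all did). For the mean of log2(CPM + 1) over the regions of a steer, bta-miR-193a-3p was 4.18 ± 0.38 in SS steers and 4.46 ± 0.26 in NS steers (SD, n = 5 each; p = 0.183, exact two-sided permutation test, for which the smallest possible p is 0.00794). The same test gave p from 0.167 to 0.944 for the 6 members. SS299 had the highest mean of the SS steers in all 6, and without SS299 the difference in this mean was -0.41 for bta-miR-193b (p = 0.119) and -0.32 for bta-miR-365-3p (p = 0.0714, exact two-sided permutation tests of 4 against 5 steers).

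Whether the SS and NS difference depended on the region was tested by the interaction of phenotype and region with the steer as a term. 0 of the 6 members passed, as did 0% of all 381 miRNAs (edgeR's quasi-likelihood test, adjusted p from 0.960 to 0.998 for the members, with 2.89% of all miRNAs, 11 in number, and 0 members at an unadjusted p under 0.05). Without SS299, 0 members passed either (adjusted p = 0.994 for each, edgeR). A difference between the duodenum and the spiral colon in how a member responded was therefore not shown.

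The second axis of the design was the region. Over all 10 steers the median of bta-miR-193b was 105 CPM in duodenum, 69.9 CPM in proximal jejunum and 80.3 CPM in distal jejunum. It was 88.6 CPM in cecum, 58.0 CPM in spiral colon and 82.6 CPM in descending colon. The median of bta-miR-365-3p was flatter, between 46.4 CPM in the proximal jejunum and 58.0 CPM in the duodenum. That of bta-miR-193a-3p lay between 14.5 CPM in the distal jejunum and 20.6 CPM in the duodenum, and that of bta-miR-193a-5p between 4.46 CPM in the spiral colon and 8.82 CPM in the proximal jejunum. No region lacked these 4 members in any steer.

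None of the 6 members passed the test of differences between the regions in edgeR's quasi-likelihood test over all 60 libraries, although 32.3% of the 381 miRNAs did. Their adjusted p ran from 0.297 to 0.588, and 0 had an unadjusted p under 0.05 (37.3% of all miRNAs did). With the steer as a block 39.6% of all miRNAs passed and again 0 members did (smallest adjusted p = 0.206, bta-miR-193b, edgeR). None of the 15 pairs of regions gave a member call, so no neighbours in the order of levels were shown to differ beyond their spread. Of all miRNAs, 10.5%, 9.19%, 16.5%, 8.14% and 16.8% passed in the other regions over duodenum, taken down the gut. Over proximal jejunum 0%, 14.4%, 3.67% and 19.9% passed, over distal jejunum 12.1%, 0% and 19.4%, over cecum 0.525% and 0.787%, and in descending over spiral colon 0.262%. The nearest were bta-miR-193b, with a log2 fold change of -1.28 in spiral colon over duodenum (adjusted p = 0.120 in the same test), and bta-miR-193a-3p, with -0.91 in distal jejunum over duodenum (adjusted p = 0.144). Without SS299 these values were -0.45 and -0.21.

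Between large and small intestine, bta-miR-365-3p passed the test only once SS299 was left out. With 10 steers 0 of the 6 members passed (33.6% of all miRNAs did), and bta-miR-365-3p had a log2 fold change of 0.12 (SE 0.24), or 0.37 with the steer as a block (adjusted p = 0.156, edgeR; 35.2% passed). Over all miRNAs 60 calls were higher and 68 lower in the large intestine, and with library size alone 25 were higher and 100 lower, the median of all moving from -0.03 to -0.25. Without SS299, bta-miR-365-3p was higher in the large intestine with a log2 fold change of 0.61 (SE 0.16, adjusted p = 0.0020, edgeR's quasi-likelihood test, where 48.3% of 377 miRNAs passed). The block gave 0.60 (adjusted p = 0.0032, edgeR; 49.3% passed). bta-miR-193b had 0.39 (SE 0.20), bta-miR-193a-3p 0.24 (SE 0.18) and bta-miR-193a-5p 0.09 (SE 0.20), and these did not pass. In the same fit bta-miR-193a had -0.15 (SE 0.39) and bta-miR-365-5p 0.86 (SE 0.45).

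This call depended on how the libraries were scaled. With library size alone and without SS299 the log2 fold change of bta-miR-365-3p was 0.22 (SE 0.16) with an adjusted p of 0.286 in edgeR's test, while the median of all 377 miRNAs stood at -0.33 in place of 0.01 under TMM. Of the 181 calls over all miRNAs then, 26 were higher in the large intestine and the rest lower, against 96 higher and 86 lower under TMM. RLE size factors gave 0.56 and an adjusted p of 0.0035. A change of scaling shifts all miRNAs of a library alike. The distance of bta-miR-365-3p from the median of all miRNAs was therefore nearly fixed in advance. That this distance was alike under each scaling does not bear on the call. bta-miR-193b changed sign with library size alone (-0.10).

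**Figure D3:**
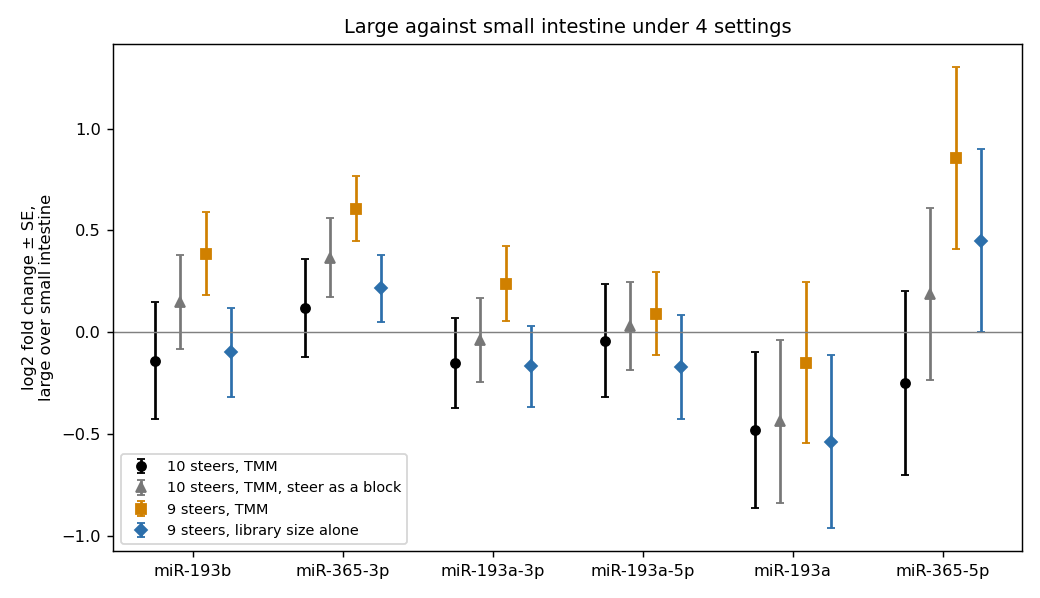
Log2 fold change of large over small intestine with its SE for the 6 members under 4 settings: all 10 steers, all 10 with the steer as a block, 9 steers without SS299, and the same 9 scaled by library size alone. bta-miR-365-3p stands at 0.12 with all steers, 0.61 without SS299 and 0.22 with library size alone.

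Without SS299, 3 members differed among the 6 regions: bta-miR-365-3p (adjusted p = 0.013), bta-miR-193b (adjusted p = 0.088) and bta-miR-365-5p (adjusted p = 0.095, all by edgeR's quasi-likelihood test, where 48.0% of all miRNAs passed). The block gave the same 3 calls (50.1% of all miRNAs passed), and with library size alone 0 were called (38.2% of all passed). Under TMM about as large a share of all miRNAs passed, so 3 of 6 members does not set the family apart. Without SS299, bta-miR-365-3p averaged 45.8 ± 19.9 CPM in proximal jejunum and 71.0 ± 47.9 CPM in cecum (SD, n = 9 each). The cecum mean was raised by NS108 (181.6 CPM), and the medians were closer, at 40.4 and 51.8 CPM. In CPM the medians were 47.2 in distal jejunum, 49.9 in descending colon, 52.9 in duodenum and 53.4 in spiral colon. The calls below came from the fit after TMM. bta-miR-365-3p was higher in the cecum than in the proximal jejunum by a log2 fold change of 1.03 (33.7% of all miRNAs passed in that pair) and than in the distal jejunum by 0.86 (24.4%). It was higher in the descending colon than in the proximal jejunum by 0.87 (37.9%) and than in the distal jejunum by 0.70 (30%). No pair of bta-miR-365-3p with the duodenum or the spiral colon passed. It averaged 55.8 CPM in duodenum and 50.8 CPM in spiral colon (n = 9 each), so not every large region lay above every small one. bta-miR-193b was higher in the cecum and the descending colon than in the proximal jejunum by 0.97 and 0.89. A further call, bta-miR-365-5p in cecum over duodenum (24.1% passed), rested on 23 counts in 9 cecum libraries, against 2 counts in 9 duodenum libraries. This row passed the filter only through the NS cecum, so its calls between regions carry that selection.

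Cell type lists moved with this contrast. Without SS299, where 48.3% of all 377 miRNAs were called (96 higher and 86 lower), all 5 smooth muscle miRNAs were higher in the large intestine (median log2 fold change 0.95, against 0.01 over all miRNAs tested), 3 of 4 leukocyte miRNAs were lower (median -0.68), and of 8 epithelium miRNAs 2 were higher and 3 lower (median -0.17). With all 10 steers, where 33.6% were called, 1 of 5 smooth muscle miRNAs was higher and 2 of 4 leukocyte miRNAs were lower. No miRNA of these lists was at 0 in every library, and their part in the values of bta-miR-365-3p was not tested.

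Other miRNAs with reported roles in mouse brown fat cells were set beside the family. In none of the 6 regions did any of the 11 promoting or 8 opposing miRNAs found pass the test of SS against NS. The promoting list named miR-378 but not bta-miR-378b. The paper placed bta-miR-378b in the miR-378 family and reported it as lower in SS steers in every region. Between large and small intestine, with all steers and 33.6% of all miRNAs called (60 higher and 68 lower), 2 of the 11 promoting miRNAs were higher and 0 lower (median log2 fold change 0.01), and of the 8 opposing miRNAs 3 were higher and 3 lower (median 0.29, against -0.03 over all 381). bta-miR-196a, which lies in the HOX clusters, had the largest of these, 4.13 (adjusted p = 2.5e-08, edgeR's quasi-likelihood test). bta-miR-27a-3p (0.40) and bta-miR-27b (0.45) were also higher in the large intestine, and bta-miR-93 (-0.26) lower. With library size alone and without SS299, bta-miR-27a-3p (0.22, adjusted p = 0.1997, edgeR) no longer passed, whereas bta-miR-27b (0.20), bta-miR-196a (3.91) and bta-miR-93 (-0.65) did.

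bta-miR-193b and bta-miR-365-3p had the most alike pattern, although the row bta-miR-365-3p can hold reads of both MIR365 genes. Over the 60 libraries the Spearman correlation of bta-miR-193b with bta-miR-365-3p was 0.82 on TMM-scaled log2 CPM, the highest of 225 miRNAs of at least 10 CPM for each of the pair. It was 0.76 over the 54 libraries without SS299. Pearson's r was 0.91, and 0.88 without the 2 libraries farthest from the median. Within regions (n = 10 steers each) Spearman's rho was lowest in spiral colon (0.41) and distal jejunum (0.67). It was 0.79 in proximal jejunum, 0.81 in duodenum, 0.88 in descending colon and 0.92 in cecum. These values describe libraries that share steers, depth and scaling, and carry no test.

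**Figure D4:**
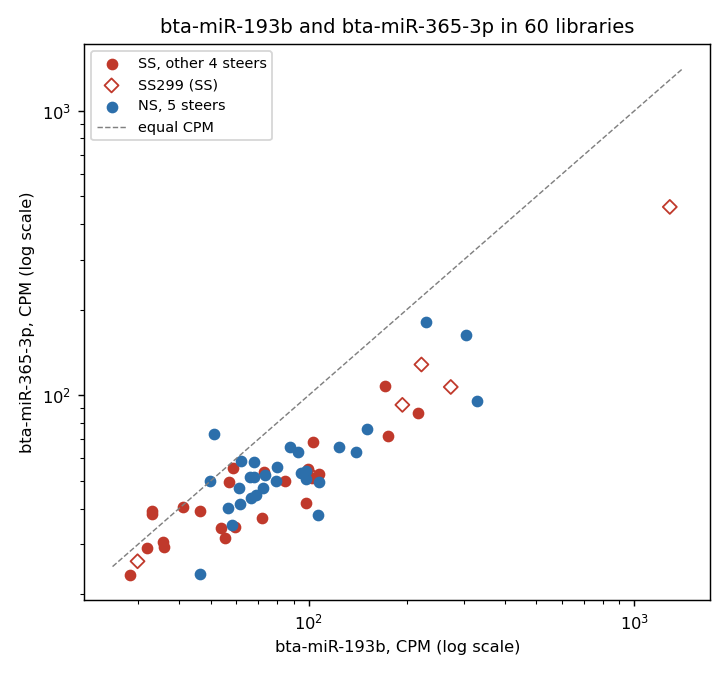
CPM of bta-miR-365-3p against bta-miR-193b in 60 libraries (both axes log), with SS steers in red, SS299 as open diamonds and NS steers in blue; the dashed line marks equal CPM. Most libraries lie below the line, and the levels of the pair go together from the lowest libraries up to 1285 CPM of bta-miR-193b in the duodenum of SS299.

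The ratio of the pair was steadier than either level. bta-miR-193b exceeded bta-miR-365-3p in 56 of the 60 libraries, with a median ratio of 1.64 in SS libraries and 1.53 in NS libraries (30 each), or 1.54 in SS libraries without SS299. The ratio ran from 0.699 in NS165 spiral colon to 3.45 in NS108 distal jejunum, the library with the smallest total. It was 2.80 in the duodenum of SS299, where both levels were highest, so bta-miR-193b stood out there more than bta-miR-365-3p did. The levels of the pair spanned 28.2 to 1285 CPM and 23.4 to 459.5 CPM. Without SS299 they reached at most 328.7 and 181.6 CPM. A shift shared by all miRNAs of a library cancels in a ratio, and the ratio of no other pair was set beside this one. The steadier ratio is therefore not shown to be particular to the pair.

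The next nearest patterns to bta-miR-193b were bta-miR-99a-3p (rho 0.77), bta-miR-664b (0.72), bta-let-7c (0.64) and bta-miR-204 (0.63). Those nearest to bta-miR-365-3p after bta-miR-193b were bta-miR-664b (0.78), bta-miR-204 (0.73), bta-miR-127 (0.69) and bta-miR-30f (0.67). Without SS299 (54 libraries) these fell to between 0.52 and 0.74, for example 0.52 for bta-let-7c with bta-miR-193b. Over the 60 libraries bta-miR-193a-3p had lower correlations, with bta-miR-145 (0.58), bta-miR-331-3p (0.56), bta-miR-664b (0.54), bta-miR-451 (0.54) and bta-miR-365-3p (0.54). Without SS299 the first 2 rose to 0.69 and 0.64, and the others were 0.52, 0.50 and 0.49. bta-miR-145 is a smooth muscle miRNA of the marker list. With bta-miR-193b, the member that shares its seed, the rho of bta-miR-193a-3p was 0.49.

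The arms of miR-193a showed little correlation over all libraries. Over the 60 libraries the Spearman correlation of bta-miR-193a-3p with bta-miR-193a-5p was -0.08, and -0.25 without SS299. Within regions (n = 10 steers each) it ran from -0.26 to 0.28. The counts of bta-miR-193a-5p were as low as 2 in a library, and counting noise can weaken a correlation. In the duodenum of SS299 both arms were high, at 10.0 (3p) and 8.20 (5p) times the median of the other 9 steers. The 5p share of their summed counts had a median of 29.8% in SS libraries and 20.6% in NS libraries (30 each), and 28.7% in SS libraries without SS299. It passed 50% in 5 libraries, 4 of SS299 and 1 of NS242. In SS299 the share was 67.4% in the descending colon (exact 95% interval 56.5% to 77.2%), 60.2% in the cecum (49.8% to 70.0%), 54.5% in the proximal jejunum (48.4% to 60.4%) and 50.6% in the distal jejunum (39.1% to 62.1%). It was lower in the spiral colon of SS299, at 30.4% (13.2% to 52.9%), and in its duodenum, where bta-miR-193a-3p was highest, at 13.8% (9.85% to 18.6%). In NS242 descending colon it was 66.7% (52.9% to 78.6%). These intervals cover counting error only, since reads amplified by PCR are not independent molecules.

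**Figure D5:**
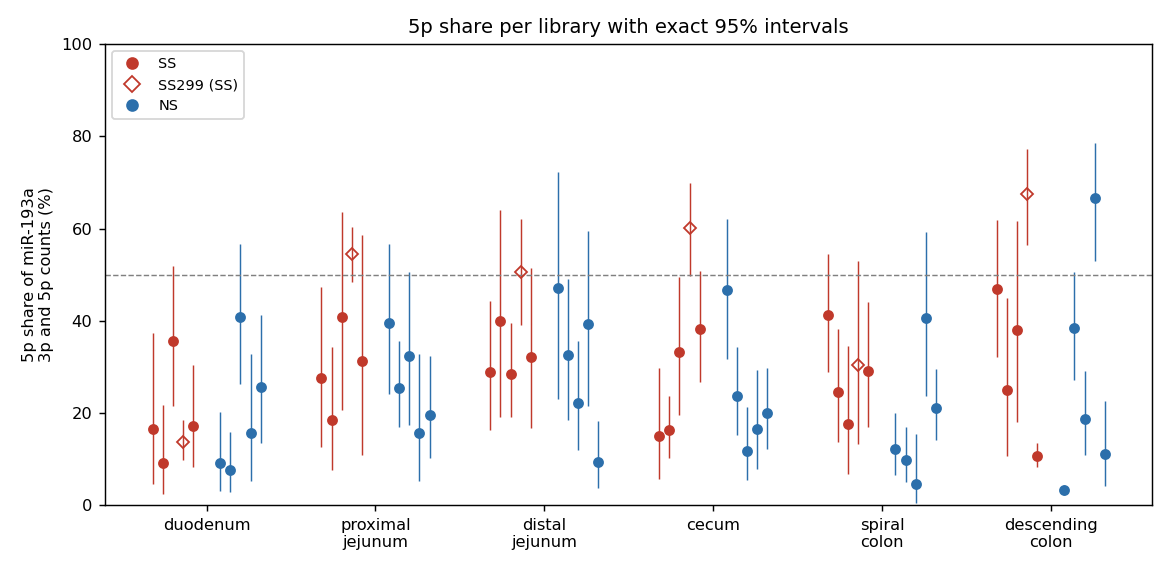
Share of the 5p arm in the summed 3p and 5p counts of miR-193a in each library (percent, with exact 95% binomial intervals), by region, SS steers on the left in red and NS steers on the right in blue; open diamonds are SS299 and the dashed line marks 50%. Only 4 libraries of SS299 and the descending colon of NS242 lie above the line.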

How the data were processed

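The analysis started from the deposited table of miRNA read counts, whole numbers with no normalization (60 columns, all mapped to a steer and a region, 0 columns unused). Per the labels and methods, the authors extracted RNA from frozen tissue with mirVana, made TruSeq Small RNA libraries, and trimmed and assigned reads with sRNAtoolbox at default parameters. The submitters' notes name Bowtie and edgeR. Genome build and the miRBase release used to assign reads: not given in the sources used here, so no coordinates or sequences are printed. Rectal libraries were not analysed here.

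Counts were tested with edgeR 4.0.16 in R 4.3.3 (TMM, quasi-likelihood, CPM above 1 in at least 3 SS or 3 NS steers, Benjamini-Hochberg adjustment over all miRNAs tested, FDR 10%). Alternatives were the exact test, DESeq2 1.42.0, RLE, library size alone, no filter, FDR 5%, all 60 libraries in 1 fit, the steer as a block and each steer left out. The tests were also run on simulated counts with planted changes, a fixed dispersion and no outlying steer or steer effect. That setting does not bear on results that turn on SS299 or on the pairing of regions. All member rows are named. Other miRNAs are the 5 nearest by Spearman's rho or listed miRNAs past the FDR. Members and lists were chosen with earlier results of these data known. The 6 regions of a steer are paired by the labels (mean correlation of deviations 0.14 within and -0.01 between steers). No same-group libraries were identical (120 pairs). The low level of miRNAs limits bta-miR-193a and bta-miR-365-5p to a few counts per library.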

Additional observations from a re-analysis of the deposited data

Results flagged for a closer look

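A single steer lay far from the other 4 of its group and region (Dixon's test at 95%) in 19 of 72 member groups on CPM (26.4%). The nominal rate would give about 3.6, but over all miRNAs tested 15.4% of 4082 such groups passed. The members share libraries, so the count is not a result about the family. The 2 sets also differ: the 4082 groups hold only miRNAs that passed the CPM filter, as did 54 of the 72 member groups. The rest of the 72 are rows with a few counts. On TMM-scaled CPM, chosen after seeing the data, 17 member groups passed (11 of them in common with CPM; 11.3% over all miRNAs). SS299 accounted for 7 of the 19 on CPM and 11 of the 17 after TMM. In the duodenum it was far above the other SS steers for bta-miR-193b (1285 CPM), bta-miR-365-3p (459.5 CPM), bta-miR-193a-3p (203.1 CPM), bta-miR-193a-5p (32.5 CPM) and bta-miR-365-5p (6.32 CPM), and for bta-miR-193a-5p also in the cecum (27.4 CPM) and the descending colon (43.4 CPM). On CPM only, NS242 was far above the other NS steers in the descending colon for bta-miR-193b (304.2 CPM), bta-miR-365-3p (162.4 CPM), bta-miR-193a-5p (39.3 CPM) and bta-miR-365-5p (2.07 CPM). After TMM none of these 4 stood apart, and bta-miR-365-3p was higher in NS165 (93.4 TMM-scaled CPM) than in NS242 (65.3).

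NS108 was far above the other NS steers for bta-miR-193b in the distal jejunum (328.7 CPM, 176 counts), for bta-miR-365-3p (181.6 CPM), bta-miR-193a-5p (24.0 CPM) and bta-miR-193a (2.28 CPM) in the cecum, for bta-miR-193a-3p in the descending colon (53.4 CPM) and for bta-miR-365-5p in the duodenum (0.604 CPM, 1 count). The remaining values were bta-miR-193a in SS294 proximal jejunum (4.49 CPM, 4 counts) and SS274 spiral colon (0.916 CPM, 3 counts). The values of bta-miR-193a and bta-miR-365-5p rest on 1 to 7 counts. After TMM, NS108 no longer stood apart for bta-miR-365-3p and bta-miR-193a-5p in the cecum, nor SS294 for bta-miR-193a or SS299 for bta-miR-193a-5p in the duodenum. The cause of these values was not tested.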

How the results depend on the processing

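The 875 values of single members under alternatives leave out the pairs of regions, whose calls are given below. Of the 875, 799 kept their side of the threshold and, where the test had one, their direction. A further 61 changed sign while past no threshold (18 of them without SS299), 14 gained a call, 0 lost one and 1 changed sign into a call. That 1 was bta-miR-365-5p in large over small intestine, at 0.91 without SS299 and with the steer as a block. In the spiral colon, SS against NS had 1 member called by DESeq2 and 0 to 1 with each steer left out. Calls among the 6 regions were 1 with library size alone (bta-miR-193b) and 0 to 3 with each steer left out, for large against small intestine 0 to 1, and for pairs of regions 1 with library size alone and 0 to 7 with each steer left out (2 without NS745, 1 without NS165, 7 without SS299). Alternatives chosen after seeing the data left out SS299. With the steer as a block they gave 3, 2 and 8 calls for the regions, large against small intestine and pairs, with RLE 2, 1 and 8, and with library size alone 0, 0 and 1. The causes were not tested, and each such fit changes the number of miRNAs tested. Over all miRNAs, the calls among regions were 123, with library size alone 66, at FDR 5% 71 and with each steer left out 65 to 181, and the share of miRNAs called for large against small intestine was 33.6%, with each steer left out 24.1% to 48.3%. SS against NS calls by edgeR's quasi-likelihood test, exact test and DESeq2 were 1, 3 and 4 in duodenum, 2, 8 and 14 in distal jejunum, 1, 3 and 4 in cecum, 3, 4 and 7 in spiral colon and 2, 15 and 14 on summed counts. With all 10 steers the replicate block left 0 members called (0.37 for bta-miR-365-3p in large over small intestine).

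A total of 3 counts equalled up to 5.604 CPM, above the mean of bta-miR-193a and bta-miR-365-5p, so their absence in a library was not detectable as such. Intervals cover counting error only.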
